A study of Mus musculus with 6 samples.

Results

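Lymphatic endothelial cells were sought among single-cell transcriptomes of injured mouse quadriceps by the transcripts of their defining genes. A cell barcode was taken as a member when it held a transcript of at least 2 of the 4 genes Prox1, Mmrn1, Ccl21a and Reln and of at least 1 of the 5 genes Pecam1, Cdh5, Egfl7, Flt4 and Lyve1, and none of the leukocyte gene Ptprc or the fibroblast gene Pdgfra. This rule found 50 members among 53717 kept barcodes. The values of these 11 genes chose the members, so they are given as a description and without a test.

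Lymphatic vessels take up fluid, lipids and immune cells from tissue and return them to the blood. Their endothelium is specified by the transcription factor Prox1 and grows and survives on VEGF-C, which signals through the receptor Flt4 (VEGFR3) with Nrp2 as co-receptor. Initial lymphatics carry the hyaluronan receptor Lyve1 and secrete the chemokine Ccl21, which draws Ccr7-bearing dendritic cells and T cells, while collecting vessels and valves rely on factors such as Foxc2 and the integrin Itga9. In muscle these vessels are sparse and run with the larger blood vessels.

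All mice carried Cdh5-CreERT2 and R26R-tdTomato, a tamoxifen-dependent Cre driven by an endothelial cadherin promoter and a red reporter, so the controls carried both alleles too. Cardiotoxin, which kills muscle fibres, was injected into the muscle, and tissue was taken 5 days later. The CLL group (3 libraries) received clodronate liposomes, which deplete phagocytes, and the SHAM group (3 libraries) received liposomes with PBS, both intravenously 1 day before and 2 days after injury. The labels name each library a biological replicate of its group.

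The libraries held 2081 to 25024 barcodes and 23873416 to 94841003 unique molecular identifiers (UMIs, 1 per captured transcript), and 1879 to 24188 barcodes per library had at least 300 genes and at most 15% mitochondrial UMIs. Between 2 and 74 kept barcode sequences were shared by a pair of libraries, and 1 member's barcode was also kept in another library. Scrublet, which scores likely doublets, marked 2 members.

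The members were spread very unevenly over the libraries. CLL replicates 1, 2 and 3 held 5, 0 and 5 members, and SHAM replicates 1, 2 and 3 held 38, 1 and 1. SHAM replicate 1 alone thus supplied 76% of them. Members held a median of 5350.5 UMIs, from 554 to 76042. The 3456 barcodes used for comparison as blood endothelial cells (at least 2 of Pecam1, Cdh5 and Egfl7, none of the 4 lymphatic genes, and no Ptprc or Pdgfra) held a median of 2956.

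**Figure D1:**
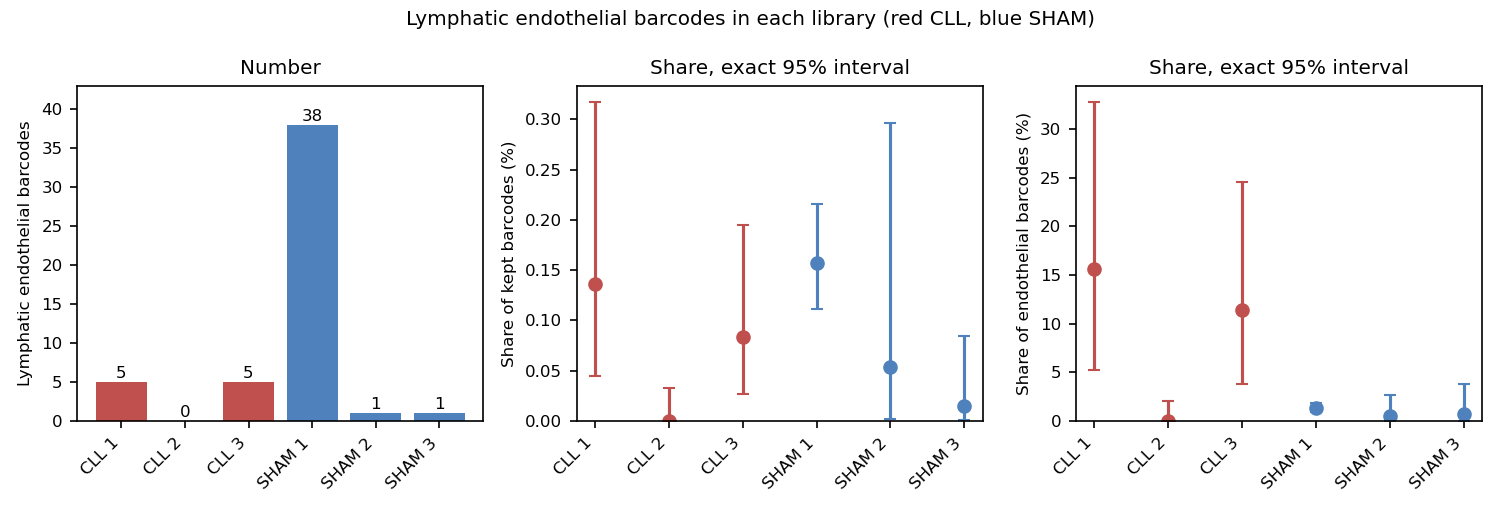
Number of lymphatic endothelial barcodes in each library (left), their share of all kept barcodes (middle) and their share of endothelial barcodes (right, members plus blood endothelial), with exact binomial 95% intervals and CLL in red, SHAM in blue. SHAM replicate 1 holds 38 of the 50, while CLL replicates 1 and 3 have the highest shares of endothelial barcodes, 15.6% and 11.4%.

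Ccl21a carried most of the lymphatic signal. It lies on mouse chromosome 4 (mm10, positions 42772860 to 42773993, minus strand), and the files list this symbol under 2 gene identifiers, of which only ENSMUSG00000094686 held UMIs. Mouse has near-identical copies of this chemokine gene, so its counts are uncertain as to copy. It had a UMI in 43 members, with medians of 5, 18 and 12 UMIs per member in CLL replicate 1, CLL replicate 3 and SHAM replicate 1. The single member of SHAM replicate 3 held 440, that of SHAM replicate 2 held 0, and the highest value, 471, was in CLL replicate 3. Summed over the members, Ccl21a reached 1709 CPM (counts scaled to the same total of UMIs in every sum) in CLL replicate 1, 4078 in CLL replicate 3, 4083 in SHAM replicate 1 and 22564 in SHAM replicate 3.

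Mmrn1 (chromosome 6, 60924976 to 60989378), which encodes the secreted protein multimerin 1, had a UMI in 38 members, with up to 35 in one. Prox1 (chromosome 1, 190118035 to 190170714) had a UMI in 37 members, but its level was low, with a median of 1.5 UMIs in SHAM replicate 1 and a highest value of 11, in CLL replicate 3. Reln (chromosome 5, 21884454 to 22344702), which encodes the secreted glycoprotein reelin, had a UMI in 29 members. Flt4 (chromosome 11) and Lyve1 (chromosome 7) each had a UMI in 34 members.

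The combinations of these genes split the members. Among the 50, 17 held all 4 genes, 13 held 3 and 20 held 2. All 17 with 4 genes had Lyve1, 15 had Flt4, 16 had the tdTomato reporter and none had at least 2 myogenic markers. Other cells' transcripts were present in some of the 17: 3 had at least 5 macrophage markers and 4 had at least 2 mural markers. The 8 members with only Mmrn1 and Ccl21a were shallow, with a median of 2204 UMIs, and 6 of them had Flt4. Other cells' transcripts were present here too: 2 of the 8 had at least 5 macrophage markers, 2 had at least 2 myogenic markers and 4 had at least 2 mural markers.

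The lymphatic label was not borne out by the markers in some of the members. In the 6 members selected by Prox1 and Reln alone, Mmrn1, Ccl21a and Lyve1 were all at 0 and 1 had Flt4. Of the 6, 5 had at least 2 of the 11 myogenic markers (Pax7, Myod1, Myog and others), and all 6 had at least 2 mural markers. Prox1 is also expressed in muscle lineage cells. Of the 5 selected by Prox1 and Ccl21a alone, 4 had at least 2 myogenic markers and 1 had Lyve1. Mural markers (at least 2) were in 4 of these 5, and macrophage markers (at least 5) in 3. The members of these 2 combinations were deep, with median UMIs of 12628.5 and 9494. The 3 deepest of all members, with 76042, 64900 and 54191 UMIs, were among them, and all 3 came from CLL libraries. The only member of SHAM replicate 2 (24828 UMIs) held 13 UMIs of the myogenic factor Myod1 and none of Mmrn1, Ccl21a, Flt4 or Lyve1.

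**Figure D2:**
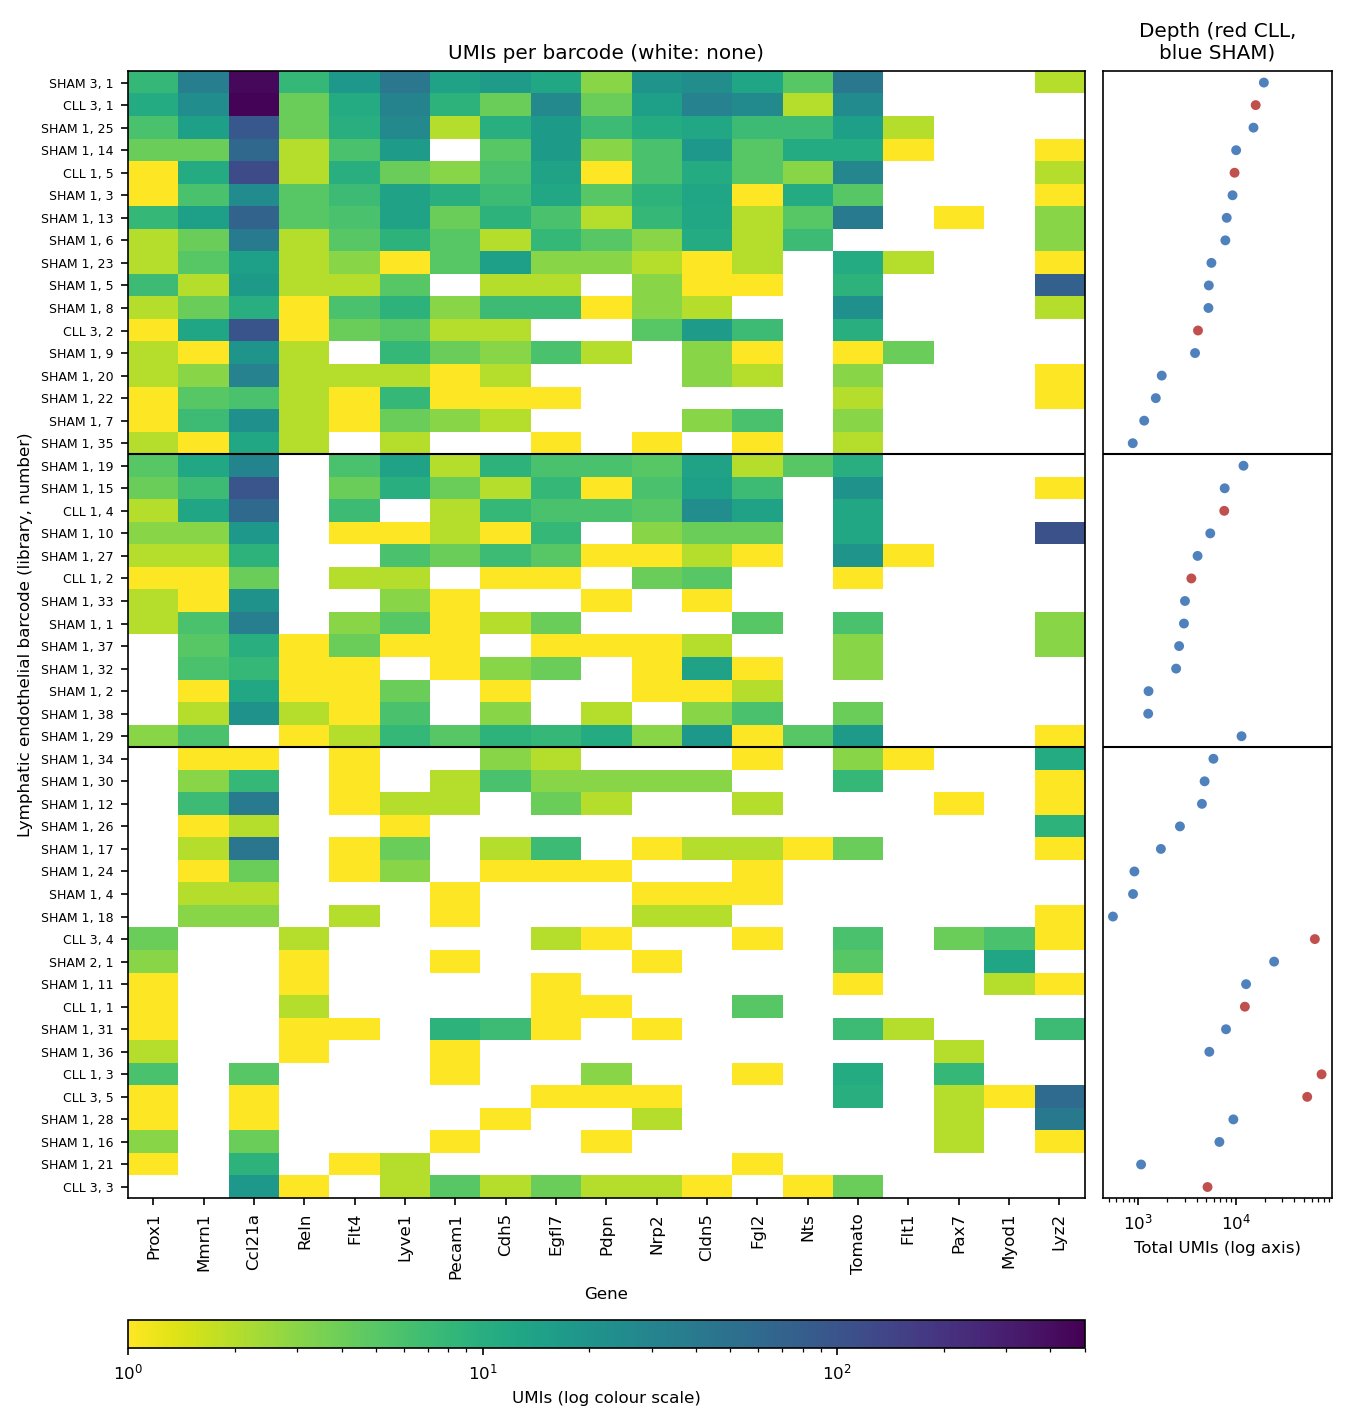
UMIs of 19 genes (columns, log colour scale, white for none) in each of the 50 members (rows, named by library and number), with the total UMIs of each at the right on a log axis. Black lines separate members with 4, 3 and 2 of Prox1, Mmrn1, Ccl21a and Reln. Flt4, Lyve1, Cldn5 and the reporter fill most of the upper 2 blocks, while Pax7 and Myod1 lie mostly in members of the lowest block without Mmrn1.

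Because those members carried other cells' transcripts, the shares of kept and of endothelial barcodes and the gene fits below are also given for a narrower set. Shares of barcodes with a UMI of given genes are over all members unless stated. The narrower set was the 30 members with 3 or 4 of the lymphatic genes, of which 3 were in CLL replicate 1, 2 in CLL replicate 3, 24 in SHAM replicate 1 and 1 in SHAM replicate 3. Their sums held 20940, 20194, 130587 and 19500 UMIs. In these sums myogenic markers had 0, 1, 2 and 1 UMIs. The summed level of 14 macrophage markers was 3385 CPM in SHAM replicate 1, against 4511 in the blood endothelial barcodes of that library, and 248 to 525 CPM in the other libraries. Of these markers, Cd163 was at 0 in all 4 sums. The part of this macrophage RNA in the results was not tested.

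Transcripts of the defining genes also lay outside the members. Pooled over libraries, members held 55.6% of the 432 Mmrn1 UMIs and 55.1% of the 3659 Ccl21a UMIs in kept barcodes. A further 33.6% and 36.6% lay in 31 barcodes that met the rule except for a UMI of Ptprc or Pdgfra. Prox1 and Reln behaved differently: members held 3.03% of 3601 Prox1 UMIs and 6.70% of 941 Reln UMIs. Of the Prox1 UMIs outside both sets, 74.7% were in barcodes with at least 3 of 11 myogenic markers, which made up 9.56% of the remaining barcodes. Of the Lyve1 UMIs, 80.6% were in barcodes with at least 5 of 14 macrophage markers (37.2%), and Lyve1 is known in tissue macrophages.

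**Figure D3:**
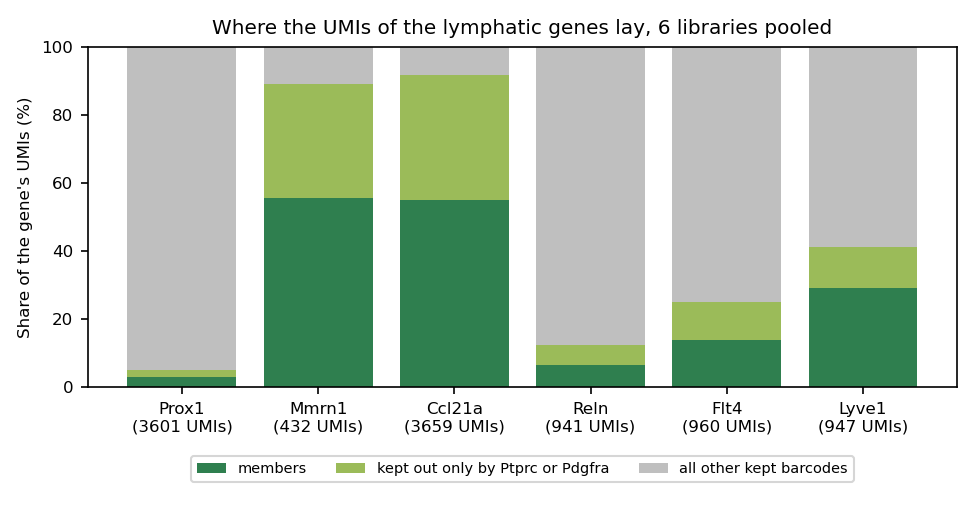
Share of each lymphatic gene's UMIs (percent, 6 libraries pooled) in members (dark green), in the 31 barcodes kept out only by a Ptprc or Pdgfra UMI (light green) and in all other kept barcodes (grey), with the total number of UMIs under each gene. Mmrn1 and Ccl21a lie mostly in the 2 green sets, whereas 94.9% of Prox1 and 87.7% of Reln lie elsewhere.

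At the edge of the rule, 337 barcodes met it except that they held 1 of the 4 lymphatic genes. That gene was Prox1 in 232, Reln in 66, Ccl21a in 34 and Mmrn1 in 5. Of the 31 barcodes kept out by Ptprc or Pdgfra, 24 had Ptprc, 16 had Pdgfra and 9 had both, and 13 held at least 3 of the 4 lymphatic genes.

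The first comparison asked whether depletion of phagocytes changed how many lymphatic endothelial barcodes were recovered. The members made up 0.136%, 0% and 0.0836% of kept barcodes in the 3 CLL libraries and 0.157%, 0.0532% and 0.0152% in the 3 SHAM libraries. The groups overlapped, with 0.0733% ± 0.0687 (SD, n = 3) in CLL and 0.0752% ± 0.0734 (SD, n = 3) in SHAM. An exact two-sided permutation test over libraries gave p = 1, where 3 libraries against 3 allow no p below 0.1. The count of 0 of 11435 in CLL replicate 2 allows a share of up to 0.0262% by the limit of 3 counts, and the exact 95% interval reaches 0.0323%. This limits barcodes that met the rule, not cells: kept barcodes held a median of 1616 UMIs there and 885 in SHAM replicate 3, against 2919.5 to 14193.5 elsewhere. With barcodes drawn down at random to 1000 UMIs, the shares were 0.139%, 0% and 0.0353% in CLL. In SHAM they were then 0.115%, 0.0552% and 0.0430% (exact permutation p = 0.8). For members with 3 or 4 lymphatic genes the CLL libraries had shares of 0.0817%, 0% and 0.0335%, and the SHAM libraries 0.0992%, 0% and 0.0152%, which also overlapped (exact permutation p = 1).

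The share among endothelial barcodes differed more in size but also overlapped. It was 15.6% in CLL replicate 1 (5 of 32, exact 95% interval 5.28% to 32.8%), 0% in CLL replicate 2 (0 of 182) and 11.4% in CLL replicate 3 (5 of 44, 3.79% to 24.6%). In SHAM it was 1.31% (38 of 2894), 0.476% (1 of 210) and 0.694% (1 of 144). The means were 8.996% ± 8.08 (SD, n = 3) and 0.828% ± 0.434 (SD, n = 3), and the exact permutation test gave p = 0.4. The difference of 8.17 percentage points became 4.85 without CLL replicate 1 and 12.7 without CLL replicate 2. For members with 3 or 4 lymphatic genes the CLL libraries had shares of 10%, 0% and 4.88%, and the SHAM libraries 0.833%, 0% and 0.694%, a difference of 4.45 points (exact permutation p = 0.4). Over all members, CLL libraries 1 and 3 lay above and CLL library 2 below every SHAM library. These intervals cover counting error only, and blood endothelial barcodes numbered 27 and 39 in the CLL libraries with the high shares.

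The second comparison asked what else set these cells apart from blood endothelial cells in the same libraries. Counts were summed per library over each kind and compared with edgeR's quasi-likelihood test with the library as a block and Benjamini-Hochberg adjustment at 0.05, leaving out the 11 genes of the rule. The rule also fixed which barcodes serve as blood endothelial, so the comparison is between 2 sets chosen by markers.

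In the 30 members with 3 or 4 lymphatic genes (4 libraries), 64 of 2153 genes tested were higher (2.97%) and 119 were lower (5.53%) than in blood endothelial barcodes, 8.5% in all. Over all 50 members (5 libraries), 20 of 2532 genes were higher (0.79%) and 128 were lower (5.06%), 5.85% in all. Of the lower genes, 82 were called in both, which is 64.1% of the calls over all members and 68.9% of the others. Of the higher genes, 3 were shared, 15% and 4.69% of the calls, but only 34 of the 64 were tested over all members and only 11 of the 20 were tested in the 30. Of the lower calls, 119 of 119 and 116 of 128 were tested in the other fit. Leaving out CLL replicate 3 took the calls over all members from 148 to 69 (1 higher, 68 lower). Leaving out SHAM replicate 1 took those of the 30 from 183 to 80 (27 higher, 53 lower), of which 24 higher and 53 lower were among the 183. Leaving out CLL replicate 1 left 103 (40 higher, 63 lower). The median log2 fold change over all genes was -0.08 in the first fit and -0.02 in the second.

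Among the 30, the set fixed as other lymphatic identity genes had 30 genes, of which 15 passed the filter on low counts: 10 rose, none fell and 5 did not pass the test, with a median log2 fold change of 1.94. Genes of the set that were scarce in blood endothelial barcodes, such as Fgl2, passed that filter only through high member sums. The tally, the median and the adjusted p values of such genes are therefore a description. Fgl2, a secreted fibrinogen-like protein, stood at 907 and 1634 CPM in CLL replicates 1 and 3 and at 452 and 667 CPM in SHAM replicates 1 and 3. In blood endothelial barcodes of the same libraries it stood at 0, 16.7, 24.1 and 5.98 CPM, so the kinds did not overlap. Its log2 fold change was 5.70 (SE 0.54, edgeR adjusted p = 2.5e-06).

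Stab1, a scavenger receptor that clears ligands from extracellular fluid, was the most even of the set. It stood at 478, 545, 574 and 564 CPM in the members in that order of libraries and at 48.1, 54.4, 85.4 and 80.1 CPM in blood endothelial barcodes. Its log2 fold change was 2.86 (SE 0.36, edgeR adjusted p = 7.4e-05).

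Podoplanin (Pdpn), the membrane glycoprotein that binds platelet Clec2 and keeps lymph and blood apart, stood at 334, 198, 391 and 154 CPM against 18.0, 4.18, 38.1 and 13.2 CPM. Every library was higher in the members. The log2 fold change was 3.58 (SE 0.47, edgeR adjusted p = 8.83e-05).

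Nrp2, the VEGF-C co-receptor, stood at 811 CPM ± 242 (SD, n = 4) in members and 183 CPM ± 26.5 in blood endothelial barcodes, a log2 fold change of 1.94 (SE 0.31, edgeR adjusted p = 0.000517). The neuropeptide gene Nts stood at 222 CPM ± 130 against 6.92 CPM ± 5.12. Thy1, a surface glycoprotein, stood at 356 CPM ± 137 against 30.2 CPM ± 11.1, and the transcription factor Maf at 386 CPM ± 280 against 30.1 CPM ± 29.7. Tbx1, a transcription factor that mice need to form lymphatic vessels, stood at 164 CPM ± 68.1 against 3.94 CPM ± 5.83. The tetraspanin Cd9 and the metalloproteinase inhibitor Timp3 also rose, both by a log2 fold change of 1.32. Over all 50 members, Maf and Fxyd6 were the 2 of 11 tested genes of this list that rose.

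Identity genes in the list that did not pass the test in the 30 included Sox18, which induces Prox1 in the embryo, at a log2 fold change of 0.22 (edgeR adjusted p = 0.974) and Ramp2, the adrenomedullin receptor partner, at 0.13 (edgeR adjusted p = 0.974). Others were too sparse to be tested. Sema3d, a guidance ligand, had 1, 7, 17 and 5 UMIs in the member sums, and 0, 0, 1.10 and 0 CPM in the blood endothelial sums. Klhl4 had 9, 7, 17 and 0 UMIs. Stab2 had no UMI in any of the 4 sums.

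Outside that list, the genes with the largest folds among the higher calls, by the rule used for naming genes, were Slc45a3, Dtx1, Pard6g, Ntn1, Mpp7, Prelp and Slc38a4, besides Tbx1, Fgl2, Nts, Pdpn and Thy1. Slc45a3, a transporter, had 2, 6, 18 and 2 UMIs in the member sums and 1 UMI in all 4 blood endothelial sums together, a ratio of 1901 per UMI total (exact 95% counting interval 314 to 77714). Dtx1, an E3 ubiquitin ligase that acts on Notch signalling, had 3, 4, 11 and 4 UMIs against 3 in all blood endothelial sums, a ratio of 498 (150 to 2598). Slc45a3 and Dtx1 also passed the filter on low counts only through the member sums, so their ratios are a description. Pard6g and Mpp7 encode cell polarity scaffolds, Ntn1 encodes the guidance cue netrin 1, Prelp an extracellular matrix protein and Slc38a4 an amino acid transporter. Their log2 fold changes ran from 3.54 for Slc38a4 to 5.68 for Pard6g, and Ntn1 was at 5.30.

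**Figure D4:**
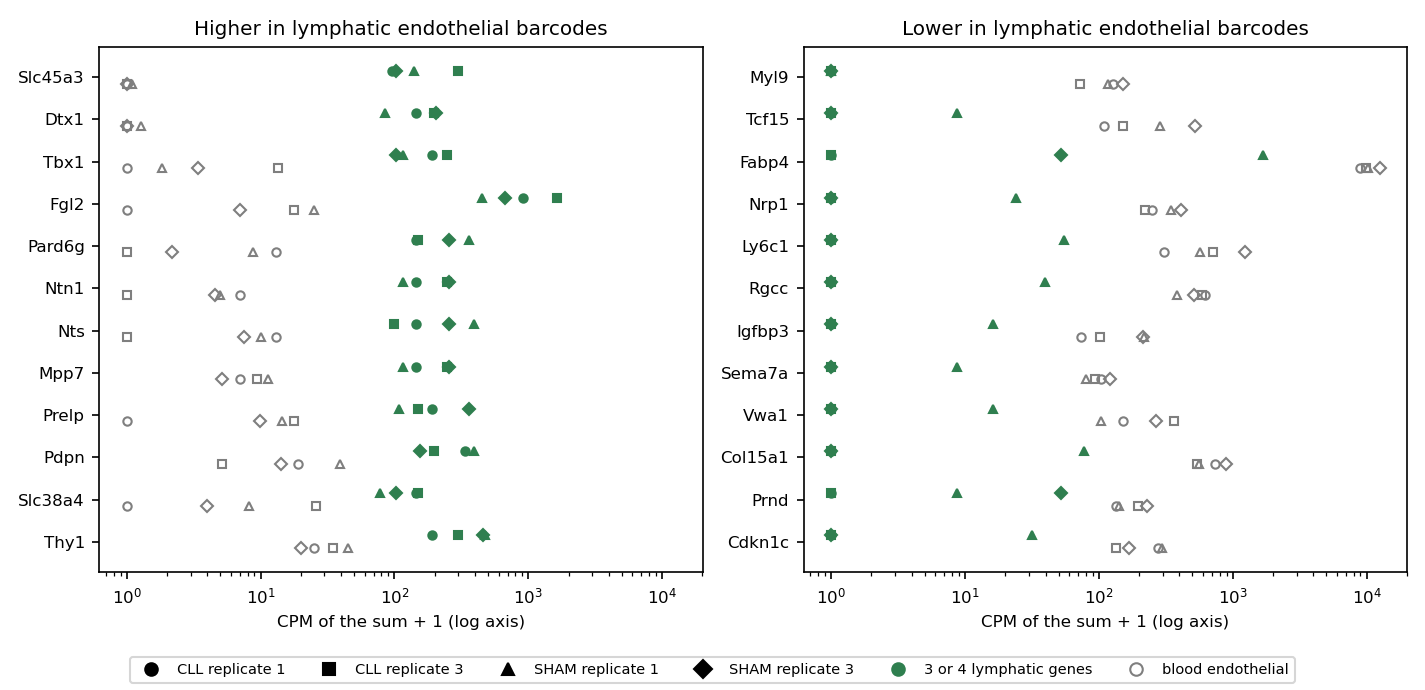
CPM plus 1 (log axis) of the 12 higher and 12 lower genes named by rule, in the sums of members with 3 or 4 lymphatic genes (filled green) and of blood endothelial barcodes (open grey), with a symbol for each of the 4 libraries. Filled and open symbols do not overlap for any of the 24 genes. The naming rule took calls with the largest folds and the same direction in every library, so this separation is largely built in. Filled symbols at 1 on the right are sums without a UMI, in which 3 UMIs would be 143 to 154 CPM in the 3 small libraries.

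Blood endothelial genes were low in the members. Of 29 such genes, 20 were tested in the 30 members: 15 fell, none rose and 5 did not pass the test, with a median log2 fold change of -3.08. Over all 50 members, 16 of 20 fell, with a median of -3.85. Genes scarce in the members, such as Flt1, passed the filter on low counts only through the blood endothelial sums. Both tallies are therefore a description. Ly6c1, a surface protein of mouse blood endothelium, had 0, 0, 7 and 0 UMIs in the member sums, against 307, 715, 570 and 1237 CPM in blood endothelial barcodes of CLL replicates 1 and 3 and SHAM replicates 1 and 3. Its log2 fold change was -4.47 (SE 0.55, edgeR adjusted p = 5.34e-05). Flt1, the VEGF-A receptor that acts as a decoy in blood vessels, had 0, 0, 10 and 0 UMIs against 397 to 539 CPM. Gpihbp1, which holds lipoprotein lipase on capillaries, had 0, 1, 21 and 0 UMIs against 427 to 1288 CPM. Both also fell, by 3.58 and 3.23 on the log2 scale.

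Lipid uptake genes of muscle capillaries went the same way. Of 17 genes of fatty acid uptake and oxidation, 7 were tested and 3 fell (Fabp4, Cd36 and Fabp5), with a median log2 fold change of -0.76. Fabp4, a fatty acid binding protein, had 0 UMIs in both CLL sums, 221 in SHAM replicate 1 (1692 CPM) and 1 in SHAM replicate 3 (51.3 CPM). In blood endothelial barcodes it stood at 8853 to 12504 CPM, so every member sum was lower. It fell by 5.66 on the log2 scale (SE 0.79, edgeR adjusted p = 0.000172). Cd36, a fatty acid translocase, had UMIs in the SHAM replicate 1 sum only, at 161 CPM against 810 CPM in that library's blood endothelial barcodes.

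Tcf15, a transcription factor of fatty-acid-handling capillary endothelium, had 1 UMI in all 4 member sums against 4019 in blood endothelial barcodes, a ratio of 59.2 lower (exact 95% counting interval 10.6 to 2339). Other named genes that fell were Nrp1, the VEGF-A co-receptor, and Rgcc, Igfbp3, Sema7a, Vwa1, Col15a1, Prnd and Cdkn1c. Their log2 fold changes ran from -4.63 for Nrp1 to -3.91 for Cdkn1c. Myl9, a myosin light chain of contractile cells, had no UMI in any member sum and was at least 7.63-fold lower against a floor of 3 UMIs over the 4 sums. Fam167b, named over all 50 members, had no UMI in any of the 5 sums and was at least 12.2-fold lower.

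Junction genes moved in both directions. Of 14, 9 were tested: Cldn5 rose, Esam fell and 7 did not pass the test. Cldn5, the main claudin of endothelial tight junctions, stood at 1910, 2377, 1172 and 1179 CPM in the members against 397, 536, 241 and 464 CPM. All 4 member sums lay above all 4 blood endothelial sums (log2 fold change 1.88, SE 0.27, edgeR adjusted p = 0.000178). Esam, an adhesion molecule of blood endothelial contacts, fell by 3.22. Among 26 genes of leukocyte traffic, 8 were tested: F11r (junctional adhesion molecule A) rose, while the chemokine Cxcl12, Jam2 and Sema7a fell. Cxcl12 had 0, 0, 13 and 3 UMIs in the member sums against 619 to 1285 CPM, a fall of 3.54 on the log2 scale (SE 0.50, edgeR adjusted p = 0.000178).

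In the VEGF-C and Tie signalling list, 6 of 18 genes were tested and Ptprb, the phosphatase that restrains Tie2, fell by 2.23. The receptor gene Tie1 was at a log2 fold change of 0.81 (edgeR adjusted p = 0.294), Tek at 0.06 and Kdr at -0.05. Basement membrane and anchoring genes had 3 of 13 tested that fell, Hspg2, Col4a1 and Col4a2, by 1.98, 1.06 and 1.23. In the mesenchymal transition list, Tgfbr2, the type 2 TGF-beta receptor, rose by 1.79 and 6 of 14 tested fell (Sparc, Tagln, Col1a2, Acta2, Col3a1 and Postn), several of which are also mural or fibroblast markers. Beside these, 5 of 8 tested fibroblast markers and 3 of 3 tested mural markers fell, and the summed mural markers stood at 0 to 322 CPM in members and 1046 to 2039 CPM in blood endothelial barcodes.

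Several programmes had no gene past the threshold in the 30. These were interferon response (7 tested, median 0.30), MHC class I (10 tested, 0.25), MHC class II (1 tested), proliferation (9 tested, -0.21), glycolysis and hypoxia (12 tested, -0.38), Notch signalling (2 tested) and collecting and valve genes (3 tested, 0.69). Of the NF-kB inflammation list, Socs3 was the 1 gene of 8 tested that fell, by 2.05, and of the early dissociation genes Ier3 was the 1 of 14, by 1.44.

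The 20 higher calls over all 50 members held the lymphatic identity genes Maf and Fxyd6. They also included the muscle filament gene Des, with 557, 623, 96.8, 201 and 0 CPM in CLL replicates 1 and 3 and SHAM replicates 1, 2 and 3. In the same sums the 11 myogenic markers together stood at 1097, 6757, 260, 4430 and 51.3 CPM. The named higher genes of this fit were Iffo1, Celf2, Cd82, Olfml2b, Nbl1, Twsg1, Pkig, Timp2, Pdlim4, Zfas1, Tubb2b and Kmt5a. Iffo1, which encodes a nuclear filament-like protein, led them at 101, 159, 66.3, 121 and 103 CPM against 24.0, 8.37, 15.1, 7.96 and 6.58 CPM (log2 fold change 2.83, SE 0.46, edgeR adjusted p = 0.0048). None of these 12 was also named in the members with 3 or 4 lymphatic genes.

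The tdTomato reporter is switched on in cells in which the endothelial Cre had acted. Its UMIs were also found in macrophage barcodes, so a UMI alone does not show this for a barcode. With every barcode drawn down at random to 1000 UMIs, so that depth is equal, 25 of 46 members (54.3%, 4 shallower members left out) had a reporter UMI. The share was 60.4% in 3180 blood endothelial barcodes and 11.9% in 9551 macrophage barcodes, which serve as a background. Without drawing down, the shares were 74%, 78.1% and 39.7%. By lymphatic genes held, the undrawn counts were 16 of 17 members with 4, 11 of 13 with 3 and 10 of 20 with 2. Per library, at 1000 UMIs, 3 of 5, 3 of 5, 17 of 34, 1 of 1 and 1 of 1 members had a reporter UMI. The paired difference from blood endothelial barcodes over 5 libraries averaged 13.02 percentage points, opposite in sign to the pooled shares because it weights a library with 1 member like the others, with an exact sign-flip permutation p = 0.4375 where no p below 0.0625 is possible. Without SHAM replicate 2, where 1 of 1 member stood against 89 of 207 blood endothelial barcodes, it averaged 2.03 points (exact permutation p = 0.875). That 1 member is the barcode described above with Myod1 and none of Mmrn1, Ccl21a, Flt4 or Lyve1.

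Of the collecting and valve genes, most were too sparse to be tested. The valve integrin Itga9 had 1, 3, 22 and 4 UMIs in the sums of the 30, against 12.02 to 24.5 CPM in blood endothelial barcodes, and Foxc2 had 0, 0, 2 and 0 UMIs.

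Within SHAM replicate 1, where 34 members reached 1000 UMIs, single genes could be followed across barcodes of equal depth. Thy1 had a UMI in 38.2% of members, 4.26% of blood endothelial and 2.88% of macrophage barcodes. Fgl2 was found in 32.4%, 2.74% and 6.48%, and Nr2f2, a venous and lymphatic nuclear receptor, in 29.4%, 7.65% and 1.76%. Sema3d was found in 14.7%, 0.152% and 0.0666%, and the pentraxin Ptx3 in 17.6%, 1.52% and 1.37%. These 5 are examples from the list of other lymphatic identity genes, and further genes of it did not separate the kinds. Gata2 was in 2.94% of members and 3.77% of blood endothelial barcodes, Calcrl in 8.82% and 8.63%, and Foxc1 in 0% and 2.32%. Without drawing down, Thy1 was in 63.2%, 12.5% and 12.7%, and Sema3d in 26.3%, 0.420% and 0.440%. The scavenging chemokine receptor Ackr2 and the T cell survival factor Il7 were each in 6 of 38 undrawn members (15.8%), and in 0% and 0.105% of blood endothelial barcodes. At 1000 UMIs they were in 0% and 5.88% of members. These are values of 1 library and carry no test between conditions.

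Transcripts of the proliferation list were detected in every kind. A barcode with UMIs of 2 of these genes is not thereby shown to be in S phase or division. At 1000 UMIs, 21 of 46 members (45.7%) had UMIs of at least 2 of the 31 listed genes, against 40.2% of blood endothelial and 33.4% of macrophage barcodes. Without drawing down the shares were 82%, 71.0% and 85.4%. Per library, at 1000 UMIs, the counts were 2 of 5 and 3 of 5 in CLL, and 15 of 34, 0 of 1 and 1 of 1 in SHAM. At that depth the means were 50% and 48.0% (exact permutation p = 1). Top2a was found in 5.88% of the SHAM replicate 1 members and in 6.54% of blood endothelial barcodes. At the same depth Cdk1 was in 8.82% and 4.56%, and Aurkb in 0% and 1.37%.

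The last comparison asked what clodronate liposomes changed within the cells. No gene passed the threshold in the sums of all 50 members over 2 CLL and 3 SHAM libraries (0 of 1990 tested, 0%), by edgeR or by DESeq2, and 125 genes had an unadjusted p under 0.05 in edgeR. Outside the listed markers of other cell kinds, genes were named by the smallest p at a mean of at least 20 CPM. Those higher in CLL were R3hdml, Mymx, Neb, Nt5dc2 and Islr, and those lower were Dpysl2, H2-Aa, Scn3a, H2-Ab1 and Pcsk6. Dpysl2 stood at 45.7 and 27.7 CPM in CLL and at 255, 161 and 513 CPM in SHAM. Mymx, the fusion factor myomixer, stood at 119 and 284 CPM in CLL and at 20.4, 0 and 0 CPM in SHAM, and Neb, the sarcomere ruler nebulin, at 201 and 422 against 5.10, 80.6 and 0 CPM. Both are muscle genes. The summed myogenic markers of these members stood at 1097 and 6757 CPM in CLL and at 260, 4430 and 51.3 CPM in SHAM, so they overlapped between the groups, and their part in these values was not tested. Without SHAM replicate 2, which has 1 member, 21 genes were higher and 33 lower in CLL, 54 in all, and without CLL replicate 1 the count was 4.

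In the members with 3 or 4 lymphatic genes, with 2 libraries a group and 271 genes tested, 5 genes passed (1.85%), 1 higher in CLL (0.369%) and 4 lower (1.48%). Jun, an early response gene that tissue digestion can raise, was higher in CLL, at 1719 and 2526 CPM against 735 and 308 CPM (log2 fold change 1.78, SE 0.53, edgeR adjusted p = 0.0489). Cav1, the caveolae coat protein, was lower, at 95.5 and 248 CPM against 835 and 1077 CPM (log2 fold change -2.59, SE 0.77, edgeR adjusted p = 0.0489). Malat1, mt-Nd4 and Actb were also lower, by 2.31, 1.82 and 1.68. These rest on 5 CLL barcodes. Leaving out CLL replicate 3 gave 3 calls, leaving out SHAM replicate 1 gave 24 and leaving out SHAM replicate 3 gave 8.

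The difference of the treatment effect between members and blood endothelial barcodes was tested as an interaction. It passed for 0 of 2532 genes over all members (0%, with 83 at an unadjusted p under 0.05 in edgeR and 0 calls by DESeq2). Among the 30 it passed for 7 of 2153 (0.325%), 1 with a positive difference (0.0464%) and 6 with a negative one (0.279%). The 5 with the smallest p were Fabp4, Pgf, mt-Nd4, Thbs1 and Egr1. For Fabp4 the difference (log2 -13.0, SE 2.97) rests on 0 UMIs in both small CLL sums. Its SHAM values were 1692 CPM in replicate 1 and 51.3 CPM in replicate 3. The matrix protein gene Thbs1 stood at 47.8 and 0 CPM in the CLL sums, 91.9 in SHAM replicate 1 and 1846 in the single barcode of SHAM replicate 3, so that barcode alone was high. The same barcode held 2410 CPM of the interferon-induced chemokine Cxcl9, another of the 7, against 0, 0 and 7.66 CPM in the other sums. Egr1, an early response gene, was at 621 and 891 CPM in CLL and 291 and 51.3 CPM in SHAM.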

How the data were processed

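Quadriceps cells were sequenced with Chromium Single Cell 3' v3.1 chemistry, and the deposited UMI counts came from Cell Ranger, version 6.1.2 in the file headers, on the mm10 build, per the submitters' processing notes. The counts are raw, in 6 filtered matrices of 32286 features. From there, members were selected, counts were summed per library and kind, and edgeR 4.0.16 (TMM, filterByExpr, quasi-likelihood test) was run under R 4.3.3, with DESeq2 1.42.0 as an alternative. Shares used exact permutation tests over libraries and exact Clopper-Pearson 95% intervals (scipy 1.17.1). Scrublet (scanpy 1.11.5) scored doublets. Barcodes were drawn down to 1000 UMIs where shares with a UMI were compared, and a macrophage barcode had a UMI of Ptprc, at least 5 of 14 macrophage markers and none of the 4 lymphatic genes.

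The members and lists were chosen with earlier results of these data known. A planned limit of 10 members per library left only SHAM replicate 1, so every library with a member entered the fits. Named genes had the largest folds among calls with the same direction in every library and at least 50 CPM in the higher kind, up to 12 a direction, with markers of other kinds and the genes of the rule left out. The best genes of each list were added. Coordinates are from GENCODE M21 on mm10. A few genes, and a share that rests on one of them, are not reported here. The statistical steps were tested on simulated data.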

Additional observations from a re-analysis of the deposited data

Results flagged for a closer look

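Lymphatic transcripts lay in barcodes that entered no comparison. One barcode of SHAM replicate 2, with 12319 UMIs, held 661 UMIs of Ccl21a and 24 of Mmrn1, more Ccl21a than any member, and a single Ptprc UMI kept it out. In all, 13 barcodes with at least 3 of the 4 lymphatic genes were kept out by Ptprc or Pdgfra, including one of CLL replicate 1 with 56557 UMIs, 251 of Ccl21a, 26 of Mmrn1 and 1 of Pdgfra. Whether such barcodes hold RNA of more than one cell was not tested.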

How the results depend on the processing

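With 50 members, 38 of them in 1 library, the depth limits every comparison between groups. The difference in the share of kept barcodes (-0.00192 percentage points) reversed to 0.000233 with at least 3 lymphatic genes and ran from -0.0334 to 0.0390 when 1 library was left out. The reporter difference (13.02 points) reversed to -4.99 at 500 UMIs. The proliferation difference (1.96 points) ran from -22.1 to 27.9 with 1 library left out. Treatment calls over all members (0) became 16 without a filter on low counts, 5 with at least 3 lymphatic genes and 2 with no condition on Ptprc and Pdgfra, and ran from 0 to 54 with 1 library left out (with at least 3 lymphatic genes 5, 3, 24 and 8 without CLL replicate 1, CLL replicate 3, SHAM replicate 1 and SHAM replicate 3). With the replicate block, which takes equal replicate numbers as pairs although no label ties them, 0 genes were called. Calls against blood endothelial barcodes (148) became 280 by DESeq2, 558 without the filter and 37 without barcodes holding other kinds' markers, and ran from 69 to 159 with 1 library left out. With at least 3 lymphatic genes they became 291 without the filter and ran from 80 (without SHAM replicate 1) to 198. Interaction calls (0) became 9 without the filter, 7 with at least 3 lymphatic genes, 3 without barcodes holding other kinds' markers and 5 with no condition on Ptprc and Pdgfra, and ran from 0 to 1 with 1 library left out. The causes were not tested. The other 60 values for whole comparisons kept their direction and side of the threshold or stayed within 1.5 times. For single genes, 337 values kept their call, 69 lost it and none reversed. These genes had been chosen as calls with the same direction in every library, so a reversal was unlikely from the start. Settings in which a gene was not tested are not counted.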
